A study of Mus musculus with 24 samples.

Results

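Gene expression in the hippocampus was compared between Aged enriched wild-type mice (WTEE, mice 10, 11, 13, 16, 17 and 21) and Aged standard-housed MSK1 KD mice (KDSH, mice 1, 3, 8, 18 and 24), the corners of the design that differ in both genotype and housing. These 11 mice were taken from the titles of the 24 samples, each of which is the poly(A) RNA of 1 hippocampus of 1 male mouse of 21 to 23 months. WTEE mice carried the unmutated MSK1 gene and had lived from 18 months of age in large cages with a running wheel, toys, tubes and a ladder. KDSH mice were homozygous for the D194A point mutation of MSK1, made in the endogenous gene, and stayed in ordinary cages. The other groups were standard-housed wild-type mice (WTSH, 4 used here) and enriched MSK1 KD mice (KDEE, 6). All mice had a C57-Bl/6J background, reached by backcrosses from the C57-Bl/6n strain in which the mutant was made. The wild-type and mutant mice were bred as separate lines, so the mutation and the line cannot be told apart. The cage of each mouse is not given in the sources used here, so cage and housing cannot be told apart either. KDSH 6 was left out by the study for its low correlation with its group, and it was left out here unless stated.

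MSK1 is a nuclear kinase that is switched on by the MAP kinases ERK and p38, downstream of BDNF and other signals that reach active neurons. It phosphorylates the transcription factor CREB and histone H3, and through these it helps genes respond to activity. In other cells it is also known for restraining inflammatory gene expression. Enrichment of the environment is known to act on synapses, on the birth of granule cells in the dentate gyrus and on glia. A comparison across both factors asks how far apart the hippocampal transcriptomes of mice with and without both stood.

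The mutated codon defines the KD group and is shown here in the reference (unmutated) form. Codon 194 of Rps6ka5, the gene of MSK1, is a GAT codon for aspartate at 100616030 to 100616032 on the minus strand of chromosome 12 (GRCm38), in exon 5 of 18 of the coding transcript. The surrounding 51 bases of the transcript, chr12:100616006-100616056, are given 5′ to 3′ with the codon in capitals.

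Rps6ka5 codon 194: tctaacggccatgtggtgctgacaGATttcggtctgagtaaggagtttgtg

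A change of this codon alters the protein and need not alter the amount of RNA, and reads over the codon, in which the study looked for the mutation, were not analysed here. Rps6ka5 (ENSMUSG00000021180, chromosome 12, 100548439 to 100726983) had 1167, 1137, 1140, 1191 and 1157 normalized counts in KDSH mice 1, 3, 8, 18 and 24. Normalized counts are read pairs scaled by edgeR's TMM factors to the mean library. In WTEE it had 666 in mouse 10 and 1072 to 1196 in the other 5 mice. Of the 6 WTEE mice, 5 lay below every KDSH mouse and WTEE 11 lay just above them, and WTEE minus KDSH on the log2 scale, the direction used throughout, gave −0.15 with a standard error of 0.10 (adjusted p = 0.408 in edgeR). RNA levels of the gene therefore do not check the genotype labels.

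The libraries held 42687669 to 71907130 read pairs on genes in WTEE and 40066727 to 48985101 in KDSH, and WTEE was deeper (exact two-sided permutation test, p = 0.0216, adjusted p = 0.0289 over 4 measures). WTEE also had more genes with at least 1 read pair, a mean of 28597 against 27322 (exact two-sided permutation test, p = 0.013, adjusted p = 0.0289), and a larger share of ambiguous read pairs, a mean of 4.99% against 4.33% (exact two-sided permutation test, p = 0.0152, adjusted p = 0.0289). Normalization removes a difference in depth from the levels but not the better detection of rare genes in deeper libraries. Defining markers of hippocampal neurons were present in all 11 libraries. The mean levels in RPKM, which accounts for gene length, in WTEE and KDSH were 9.23 and 10.3 for Prox1 (dentate granule cells), 46.5 and 47.9 for Wfs1 (CA1), 251 and 271 for Slc17a7 (excitatory neurons) and 538 and 585 for Camk2a. WTEE 10 and WTEE 13 stood apart by genes of the choroid plexus, the tissue beside the hippocampus that makes cerebrospinal fluid. The mean log2 CPM of 18 such genes was 4.93 in WTEE 10 and 5.82 in WTEE 13, against 0.57 to 1.19 in the other WTEE mice and 0.10 to 1.30 in KDSH. WTEE 10 further had the highest share of counts on structural RNA gene models (1.41%), the highest share on the mitochondrial genome (4.95%) and the lowest Camk2a (111224 normalized counts). Results are therefore also given with the choroid plexus level in the model and without WTEE 10 and 13.

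**Figure D1:**
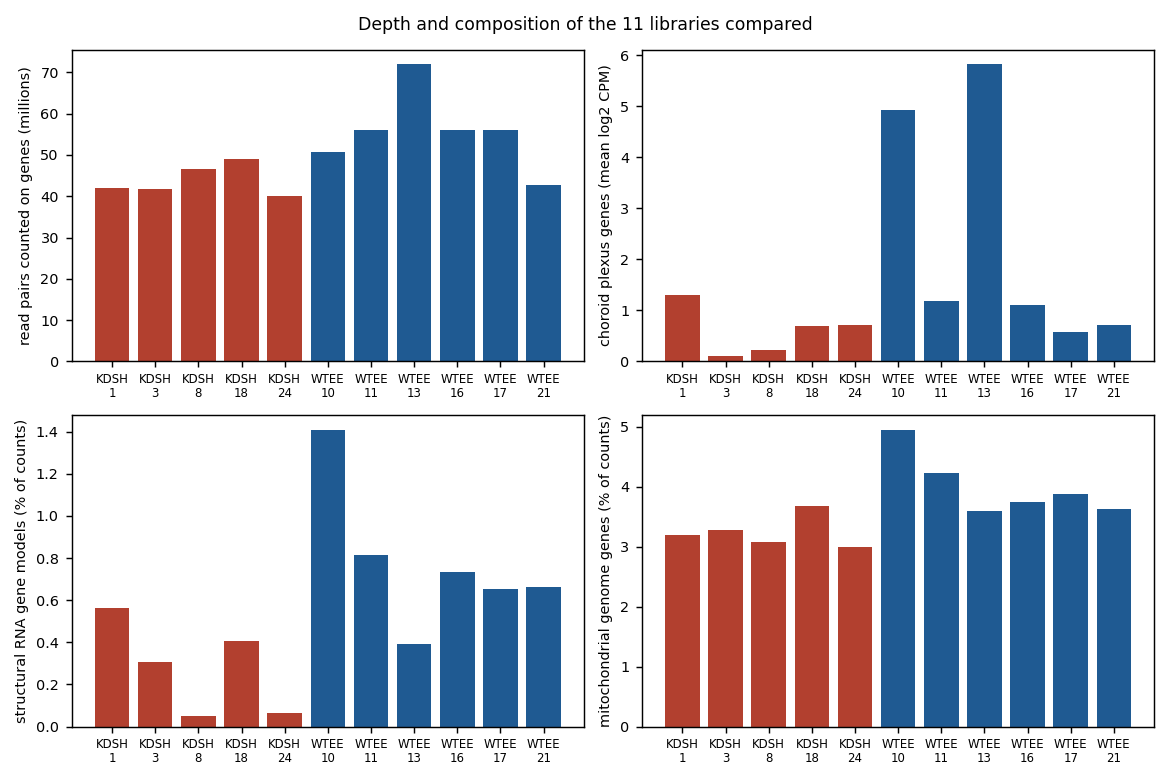
Depth and composition of the 5 KDSH (red) and 6 WTEE (blue) libraries. The panels give read pairs on genes, the mean log2 CPM of 18 choroid plexus genes, and the shares of counts in percent on structural RNA gene models and on the mitochondrial genome, as bars that start at 0. WTEE 10 and 13 stand far above all other mice in choroid plexus genes, and WTEE 10 is the highest in both shares.

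Of 20187 genes tested with edgeR's quasi-likelihood test, 0 (0%) passed both thresholds, which were 0.05 for the adjusted p and 0.38 for the size of the log2 fold change in either direction. The smallest adjusted p was 0.0559, for Ighm, and the next was 0.11. At an unadjusted p under 0.05, 1880 genes (9.31%) were higher and 1321 (6.54%) lower in WTEE. In 172 genes (0.852%) every WTEE mouse lay above every KDSH mouse and in 107 (0.53%) every WTEE mouse lay below. The Wald test of DESeq2, the test the study used, placed 16 of 16887 genes (0.0947%) past the same thresholds, 12 higher (0.0711%) and 4 lower (0.0237%) in WTEE. The higher genes were Ighm, Klhl40, Batf3, Bok, Lrg1, Mylk3, Cd14, Bambi, Flywch2, Cdk15, Hbb-bs and Bcl3, and the lower genes were Frem3, Hrk, Dio3 and Myo1h. Their adjusted p values in edgeR ran from 0.0559 to 0.3. The genes described below therefore passed the thresholds in DESeq2 only. With the choroid plexus level as a covariate 8 of the 16 passed in DESeq2 (Ighm, Klhl40, Batf3, Frem3, Hrk, Bok, Mylk3 and Dio3), and without WTEE 10 and 13 these passed except Hrk, with Cd14 and Bambi in addition.

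**Figure D2:**
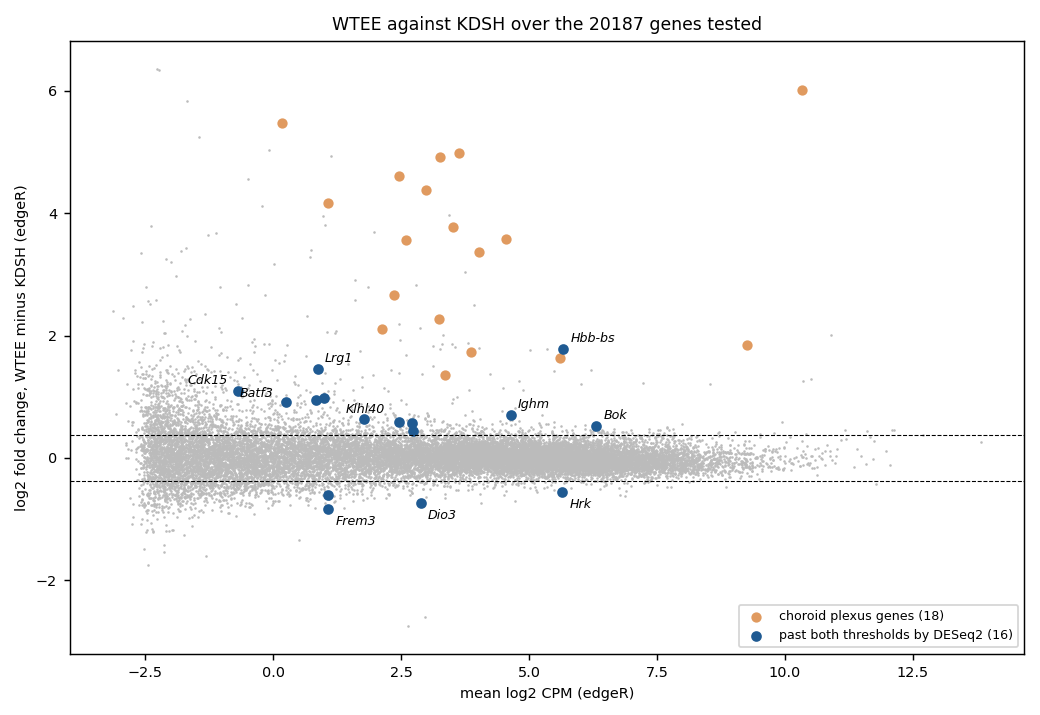
Log2 fold change (WTEE minus KDSH) against the mean log2 CPM of the 20187 genes tested in edgeR. Blue points are the 16 genes past both thresholds by DESeq2, orange points the 18 choroid plexus genes, and dashed lines mark 0.38 and −0.38. The choroid plexus genes lie above 1 on the log2 scale, while most of the 16 genes lie much closer to the dashed lines.

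Ighm, Klhl40, Batf3 and Frem3 were the genes whose passing in DESeq2 depended least on the model. They passed in DESeq2 with each of the 11 mice left out in turn, with the choroid plexus level or the structural RNA share as a covariate, without WTEE 10 and 13, and with only WTEE and KDSH in the model. In edgeR, Ighm also passed without WTEE 10 and 13 (adjusted p = 0.0371), and Ighm, Klhl40 and Mylk3 passed with the choroid plexus level as a covariate (adjusted p = 0.0324 for each). With only WTEE and KDSH in the edgeR model no gene passed, and the smallest adjusted p in edgeR was 0.502. The range of the log2 fold change in edgeR with each of the 21 libraries left out was 0.64 to 0.78 for Ighm, 0.50 to 0.63 for Klhl40, 0.80 to 0.96 for Batf3 and −0.89 to −0.77 for Frem3.

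Ighm (ENSMUSG00000076617, chromosome 12, 113418558 to 113422730, minus strand) encodes the constant region of the IgM heavy chain. It had 874, 943, 788, 1126 and 890 normalized counts in KDSH mice 1, 3, 8, 18 and 24, and a lowest, median and highest value of 1187, 1447 and 1845 in WTEE. All 6 WTEE mice lay above all 5 KDSH mice, and WTEE was 1.63-fold higher (log2 fold change 0.70, standard error 0.11, adjusted p = 0.0559 in edgeR and 2.41e-05 in DESeq2). WTSH mice, with a mean of 941 ± 102 (SD, n = 4), lay with KDSH, and KDEE mice, at 1290 ± 79.7 (SD, n = 6), lay between KDSH and WTEE. Other genes of antibodies and B cells were at much lower counts. The light chain gene Igkc had 24.3 ± 11.6 in KDSH (SD, n = 5) and 43.3 ± 33 in WTEE (SD, n = 6), and Jchain, whose protein joins IgM units, had 29.7 ± 8.21 and 29.2 ± 5.56. The B cell marker Ms4a1 stayed at 6.67 normalized counts or fewer in all 11 mice and was under the filter for testing. Of the 10 tested genes of antibodies and B cells, Ighm among them, 9 lay higher in WTEE and 1 lower, beside 10317 and 9870 of all genes tested. At an unadjusted p under 0.05 in edgeR, 2 were higher, Ighm and Ighg2b, and 0 lower. Ighg2b differed by 2.79 on the log2 scale (adjusted p = 0.3 in edgeR). The list median of 0.43 became 0.10 with the choroid plexus level as a covariate and −0.04 without WTEE 10 and 13. In bulk tissue, more cells of a type and more RNA per cell cannot be told apart.

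Batf3 (ENSMUSG00000026630, chromosome 1, 191097847 to 191108945, plus strand) encodes a transcription factor of the AP-1 family that is known for the development of type 1 dendritic cells. It had 41.4, 41.9, 40.7, 46.7 and 42.3 normalized counts in KDSH mice 1, 3, 8, 18 and 24, a narrow range, and 66.8 to 112 in WTEE with a median of 74.4. The groups did not overlap, and WTEE was 1.88-fold higher (log2 fold change 0.91, standard error 0.16, adjusted p = 0.11 in edgeR and 0.00216 in DESeq2). Both WTSH, at 43.1 ± 10.6 (SD, n = 4), and KDEE, at 48.2 ± 7.73 (SD, n = 6), lay near KDSH. Of the other 10 tested genes of type 1 dendritic cells, Id2 was higher at an unadjusted p under 0.05 (log2 fold change 0.30, adjusted p = 0.3 in edgeR). Zbtb46, Cadm1 and Clec9a were lower at that p, by 0.27, 0.15 and 0.39 on the log2 scale (adjusted p = 0.3, 0.302 and 0.302 in edgeR). Clec9a marks these cells, and Xcr1, another of their markers, was under the filter.

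Klhl40 (ENSMUSG00000074001, chromosome 9, 121777607 to 121783818, plus strand) encodes a Kelch protein best known from the sarcomeres of skeletal muscle. Its normalized counts were 224, 196, 217, 206 and 215 in KDSH mice 1, 3, 8, 18 and 24 and 270 to 417 in WTEE, with a median of 306. No WTEE mouse overlapped with KDSH, and WTEE was 1.5-fold higher (log2 fold change 0.59, standard error 0.11, adjusted p = 0.11 in edgeR and 0.000734 in DESeq2). The antisense gene model Gm47108 overlaps 21.6% of its exon bases, and counting without strand cannot separate the pair. Mylk3, the gene of a cardiac myosin light chain kinase, had 48.9 to 89.7 normalized counts in KDSH and 97.2 to 227 in WTEE, where mouse 17 was highest in this gene as in Klhl40. The groups did not overlap (log2 fold change 0.98, standard error 0.21, adjusted p = 0.227 in edgeR and 0.00606 in DESeq2). Myo1h, which encodes an unconventional myosin, was among the lower genes, with 96.2 to 149 in KDSH and 62.6 to 97.9 in WTEE (log2 fold change −0.61, standard error 0.13, adjusted p = 0.227 in edgeR and 0.0206 in DESeq2). The gene Kctd10 on the opposite strand overlaps 25.8% of its exon bases.

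Frem3 (ENSMUSG00000042353, chromosome 8, 80611080 to 80695356, plus strand) encodes an extracellular matrix protein. It had 125, 113, 132, 126 and 152 normalized counts in KDSH mice 1, 3, 8, 18 and 24 and 59.7 to 88.5 in WTEE, with a median of 73.4. WTEE lay wholly below KDSH, at 0.563 of its level (log2 fold change −0.83, standard error 0.15, adjusted p = 0.124 in edgeR and 0.00167 in DESeq2). KDEE mice lay at 90.6 ± 24.2 (SD, n = 6) and WTSH mice at 114 ± 20.1 (SD, n = 4).

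Hrk and Bok, both of the BCL2 family that sets the threshold for apoptosis, went in opposite directions. Hrk encodes a BH3-only protein that promotes cell death in neurons, and Bok a multidomain relative of Bax that is abundant in CA3. Hrk had 3055, 2923, 3661, 2333 and 2588 normalized counts in KDSH mice 1, 3, 8, 18 and 24 and 1630 to 2244 in WTEE, with a median of 2000 (log2 fold change −0.55, standard error 0.11, adjusted p = 0.159 in edgeR and 0.00412 in DESeq2). The groups did not overlap, although KDSH 18 (2333) lay close to WTEE 11 (2244). Bok had 3594, 3585, 2789, 2836 and 3129 in the same KDSH mice and 3847 to 6000 in WTEE, with a median of 4252 (log2 fold change 0.52, standard error 0.10, adjusted p = 0.202 in edgeR and 0.00462 in DESeq2), again without overlap. Of the 17 tested members of the family, 3 were higher (Bok, Bad and Bnip3) and 1 lower (Hrk) at an unadjusted p under 0.05. Of all genes tested, 9.31% were higher and 6.54% lower at that p. The median log2 fold change of the family was 0.10 against 0.01 over all genes tested. Bad, which also promotes cell death, was 843 to 998 in KDSH and 958 to 2041 in WTEE, and its log2 fold change of 0.40 (adjusted p = 0.3 in edgeR) was 0.13 without WTEE 10 and 13. Other genes of CA2 and CA3 mostly did not follow Bok. Of 12 such genes, Bok among them, 4 had a positive log2 fold change and 8 a negative one, with a median of −0.06. Bok was the only one with an unadjusted p under 0.05 in edgeR. The CA2 and CA3 gene with the next highest log2 fold change was Pcp4 (0.43, adjusted p = 0.338 in edgeR).

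Genes of innate immune signalling were among the 12 higher ones. Cd14 encodes a co-receptor of toll-like receptor 4 and had 98.7 to 145 normalized counts in KDSH and 155 to 276 in WTEE, where mouse 10 was highest (log2 fold change 0.64, standard error 0.13, adjusted p = 0.227 in edgeR and 0.00606 in DESeq2). KDEE mice had 179 ± 12.3 (SD, n = 6) and WTSH mice 140 ± 11.4 (SD, n = 4). Bcl3, an atypical inhibitor of the NF-kB family that acts in the nucleus, had 37.6 to 78.1 in KDSH and 62.7 to 153 in WTEE, so 4 of 6 WTEE mice lay above all KDSH mice (log2 fold change 0.95, standard error 0.23, adjusted p = 0.3 in edgeR and 0.0474 in DESeq2). Among 21 genes of NF-kB and toll-like receptor signalling, 5 were higher and 1 lower at an unadjusted p under 0.05, beside 9.31% and 6.54% of all genes tested. The list had a median of 0.05 on the log2 scale. With the choroid plexus level as a covariate 3 were higher and the median was −0.01. Without WTEE 10 and 13, 4 were higher and the median was 0.07. Over all genes tested, 744 and 794 were higher in these fits. Nfkbia, which encodes the inhibitor that NF-kB induces against itself, had a log2 fold change of 0.27, and Nfkbiz one of −0.15 (adjusted p = 0.3 and 0.302 in edgeR). Lrg1, a secreted glycoprotein of the acute phase response, had 35.6 to 76.3 in KDSH and 71.6 to 293 in WTEE (log2 fold change 1.45, standard error 0.32, adjusted p = 0.227 in edgeR and 0.00606 in DESeq2). WTEE 13 and 10, the mice with the choroid plexus genes, had the highest Lrg1, 293 and 175. With the choroid plexus level in the model its log2 fold change was 1.05, and without these mice 0.89 (adjusted p = 0.184 and 0.236 in DESeq2), so Lrg1 did not pass in either.

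Bambi encodes a membrane pseudoreceptor that dampens BMP and TGF-beta signalling. It had 281, 297, 280, 241 and 290 normalized counts in KDSH mice 1, 3, 8, 18 and 24 and 340 to 411 in WTEE, with a median of 383, without overlap (log2 fold change 0.43, standard error 0.10, adjusted p = 0.227 in edgeR and 0.00673 in DESeq2). The 28 genes of BMP and TGF-beta signalling had a median log2 fold change of 0.07. At an unadjusted p under 0.05, 3 were higher (Bambi, Id2 and Id3) and 3 lower (among them Chrd and Bmpr2). Of all genes tested, 9.31% were higher and 6.54% lower at that p, so these counts do not mark out the list. Without WTEE 10 and 13 the list had a median of 0.00. Dio3, the deiodinase that inactivates thyroid hormone, had 531, 533, 538, 317 and 371 in the same KDSH mice and 180 to 383 in WTEE, with a median of 271 (log2 fold change −0.74, standard error 0.17, adjusted p = 0.249 in edgeR and 0.0141 in DESeq2). KDSH 18 and 24 lay below WTEE 10 (383), and the other 5 WTEE mice lay below all KDSH mice. Dio2, the deiodinase that makes the active hormone, had a log2 fold change of −0.40 and the thyroid hormone target Hr one of 0.28 (adjusted p = 0.301 and 0.3 in edgeR), while the median of 11 thyroid hormone genes was −0.11.

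The remaining genes past the DESeq2 thresholds passed in few of the fits with 1 mouse left out. Cdk15, a little-studied kinase of the cyclin-dependent family, passed in 2 of 11, and its counts were low, 13.8 to 24.7 in KDSH and 26.1 to 51.1 in WTEE (log2 fold change 1.09, standard error 0.25, adjusted p = 0.293 in edgeR and 0.041 in DESeq2). Flywch2 passed in 4 of 11, with 227 to 308 in KDSH, 577 in WTEE 10 and 272 to 360 in the other WTEE mice. Hbb-bs, an adult beta globin gene of red blood cells, passed in 3 of 11. It had 821 to 1591 in KDSH, while WTEE mice 11 and 17 had 1168 and 1148, mouse 13 had 2031 and mice 10, 16 and 21 had 5047, 5777 and 7905. Mice 11 and 17 thus lay within the KDSH range and the other 4 above it (log2 fold change 1.78, standard error 0.44, adjusted p = 0.3 in edgeR and 0.041 in DESeq2). The globin genes Hba-a1, Hba-a2 and Hbb-bt had log2 fold changes of 1.79, 1.79 and 1.86 (adjusted p = 0.3 for each in edgeR).

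**Figure D3:**
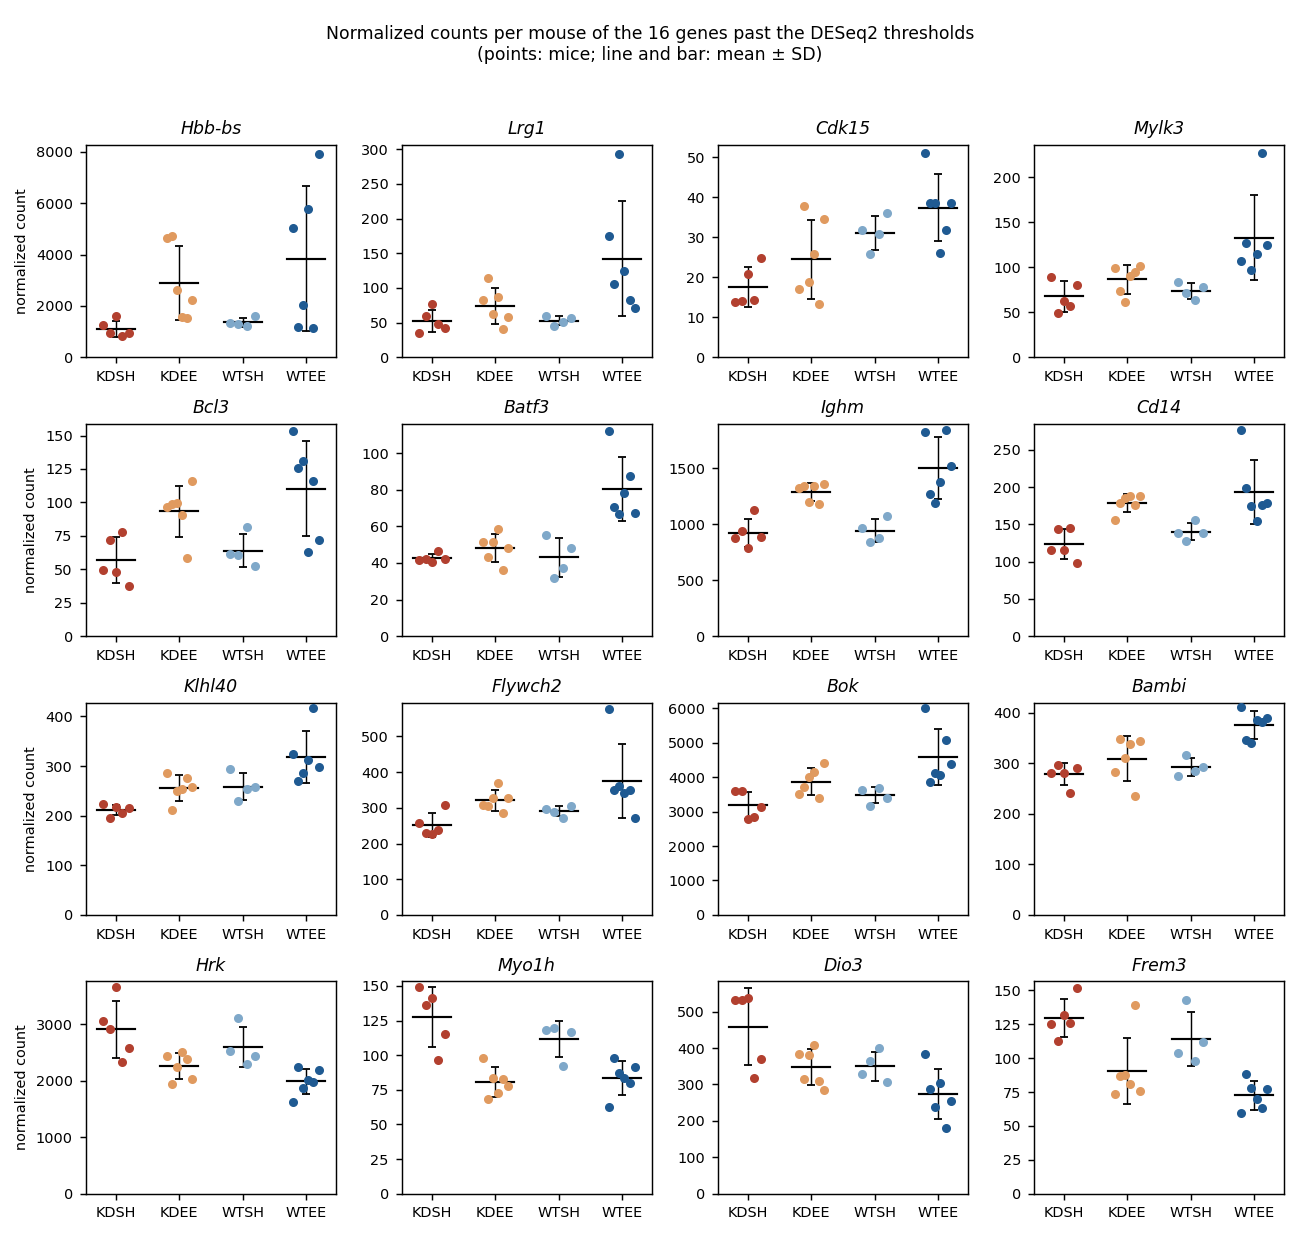
Normalized counts per mouse of the 16 genes past the DESeq2 thresholds, in the groups KDSH, KDEE, WTSH and WTEE, each on its own axis from 0. Points are mice, and the line and bar are the mean ± SD of 5, 6, 4 and 6 mice. In Batf3, Bambi and Klhl40 the WTEE mice lie above every KDSH mouse, and for Ighm, Cd14 and Myo1h the KDEE mice lie closer to WTEE than the WTSH mice do.

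Among these 16 genes, the WTEE and KDSH mice did not overlap in 10, of which 8 were higher and 2 lower in WTEE, beside 0.852% and 0.53% of all genes tested. This count describes the genes, since the same values chose them.

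WTEE and KDSH differ in housing and in genotype, and their difference in log2 expression is the sum of a housing term (enriched minus standard, averaged over the genotypes) and a genotype term (WT minus MSK1 KD, averaged over the housings). Because the terms are averages, the interaction (a difference between the effects of enrichment in the genotypes) is not a separate part of this sum. Counted from KDSH, the same difference is the effect of enrichment in MSK1 KD mice, plus that of genotype under standard housing, plus the interaction. The comparison is therefore not free of the interaction. Over all genes the housing term passed the thresholds in 1 gene, Ighm (adjusted p = 0.0099 in edgeR), with 3816 genes at an unadjusted p under 0.05. The genotype term passed in 0 genes in edgeR, with 383 at an unadjusted p under 0.05, and the interaction in 0, with 659. The terms share all 4 groups with the comparison and with each other, so they are given side by side as values.

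For Ighm the housing term was 0.58 (standard error 0.08) and the genotype term 0.12 (0.08). For Cd14 they were 0.50 and 0.15, for Bcl3 0.74 and 0.21, for Hbb-bs 1.43 and 0.35, and for Myo1h −0.54 and −0.07, so housing had the larger share of the difference in these genes. Klhl40 had terms of similar size, 0.29 (standard error 0.08) for housing and 0.30 (0.08) for genotype, as had Dio3 with −0.37 and −0.37 (standard errors 0.12 and 0.12). In Cdk15 the genotype term of 0.73 (standard error 0.18) was larger than the housing term of 0.36 (0.18). The housing term was the larger in 14 of the 16 genes and the genotype term in 2, and both terms had the sign of the difference in all 16. A gene with terms of opposite sign has a smaller difference and is less likely to be among the 16, so this count is not a test. Differences between the terms were not tested.

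Taken as steps, enrichment of WT mice (WTEE minus WTSH) and the genotype under standard housing (WTSH minus KDSH) gave log2 fold changes of 0.68 and 0.03 for Ighm, 0.90 and 0.01 for Batf3, and 1.43 and 0.02 for Lrg1. For Klhl40 the steps were 0.30 and 0.29, for Dio3 −0.35 and −0.39, and for Cdk15 0.26 and 0.83. Along the other path, through enriched MSK1 KD mice, Batf3 had 0.73 between WTEE and KDEE and 0.18 between KDEE and KDSH. Its interaction was 0.72 (unadjusted p = 0.0069 in edgeR), the only one of the 16 with an unadjusted p under 0.05, and it did not pass after adjustment (adjusted p = 0.73 in edgeR). Myo1h had 0.05 and −0.66 along the same path, and Cd14 0.11 and 0.53.

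**Figure D4:**
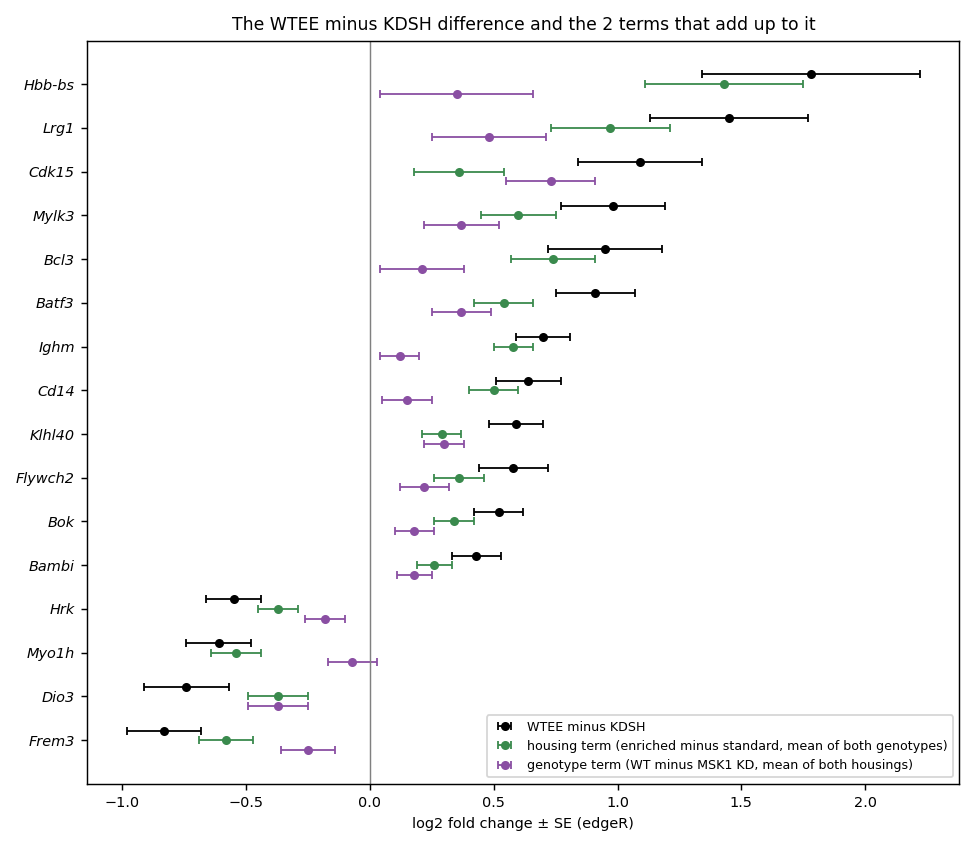
Log2 fold change ± SE from edgeR for the 16 genes, for WTEE minus KDSH (black), the housing term (green) and the genotype term (purple). The green and purple values of a gene add up to the black one. Green lies farther from 0 than purple in 14 genes, and purple is the farther in Cdk15 and, by 0.01, in Klhl40.

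For the gene lists, chosen with earlier results of these data known, the number of members at an unadjusted p under 0.05 in edgeR was read against 9.31% of all genes for higher and 6.54% for lower, and no member of any list passed both thresholds in edgeR. Of the 18 choroid plexus genes, 16 were higher and 0 lower, with a median log2 fold change of 3.57. Ttr, which encodes the thyroid hormone carrier transthyretin, had 245632 and 265747 normalized counts in WTEE 10 and 13 and 1026 to 2564 in the other WTEE mice, against 233 to 3585 in KDSH. Without WTEE 10 and 13 the list median was 0.25 with 0 members at that p. With the choroid plexus level as a covariate the list median was −0.02. That level is the mean of the same 18 genes, so a median near 0 was fixed in advance in this fit. WTSH 19 and KDEE mice 12 and 14 had high choroid plexus levels too (5.37, 6.51 and 4.66 on the log2 CPM scale), and no KDSH mouse did. The 13 genes of meningeal fibroblasts, cells of the brain's coverings, had a median of 0.63, which was 0.05 without WTEE 10 and 13.

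Of 19 genes of reactive astrocytes and the acute phase, 7 were higher and 0 lower, with a median of 0.47. Gfap, the intermediate filament of astrocytes, had 25001 to 35345 normalized counts in KDSH and 34170 to 45645 in WTEE, and 5 of 6 WTEE mice lay above all KDSH mice (log2 fold change 0.39, standard error 0.11, adjusted p = 0.3 in edgeR). Vim, another intermediate filament, did not overlap between groups, with 2216 to 3577 in KDSH and 3834 to 5750 in WTEE (0.45, adjusted p = 0.3 in edgeR). The median of the list was 0.32 with the choroid plexus level as a covariate and 0.22 without WTEE 10 and 13, and in each of these fits 5 of 19 were higher at an unadjusted p under 0.05. Over all genes tested, 744 were higher and 673 lower with the covariate, and 794 and 677 without these mice. The 12 astrocyte identity genes had a median of 0.07, with 1 higher.

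Disease-associated microglia genes, which mark phagocytic microglia in old and diseased brain, had 10 of 18 higher and 0 lower at an unadjusted p under 0.05, with a median of 0.33. Examples of the higher members were Cd9 (0.53), the lysosomal protease genes Ctsd (0.48) and Ctsb (0.17), and Gpnmb (0.40), each with an adjusted p of 0.3 in edgeR. Other members differed little, among them Cst7 (0.11), Itgax (0.10), Csf1 (0.00) and Lpl (−0.09), none of them at that unadjusted p. With the choroid plexus level as a covariate the median was 0.20 and 2 were higher, and without WTEE 10 and 13 the median was 0.18 and 2 were higher. Homeostatic microglia genes had a median of 0.01, with 1 of 14 higher (Aif1). Of 14 complement genes, 4 were higher, C1qa (0.46), C1qb (0.42), C1qc (0.36) and C1ra (0.39), and C4a was lower (−0.50, adjusted p = 0.3 in edgeR). No complement gene was higher at that p with the covariate. MHC class II genes had a median of 0.68, which was 0.10 with the covariate and −0.04 without WTEE 10 and 13, and interferon-stimulated genes had one of 0.04, which was −0.18 with the covariate, −0.24 without WTEE 10 and 13 and −0.19 without WTEE 10 alone. The part of the choroid plexus level in these differences was not tested beyond these fits.

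Myelin genes lay higher in all 13 members, 7 of them at an unadjusted p under 0.05 (median 0.25). Over all genes, 10317 of 20187 lay higher. The mean log2 CPM of the list was 7.38 to 7.76 in WTEE and 7.12 to 7.72 in KDSH, where mouse 18 was highest. Mbp, a main protein of myelin, had 124731 to 174555 normalized counts in KDSH and 149258 to 195809 in WTEE (0.28, adjusted p = 0.3 in edgeR). The list median was 0.18 with the covariate, when 0 members had that unadjusted p, and 0.22 without WTEE 10 and 13, when 1 had it. Red blood cell genes had 6 of 8 higher (median 1.57), and 6 of 8 also without WTEE 10 and 13 (median 1.65). Of 12 genes of the mitochondrial genome, 6 were higher and 0 lower (median 0.30), and 6 without WTEE 10 and 13 (median 0.21). In mt-Nd1, a subunit of complex I, all WTEE mice (201378 to 359858) lay above all KDSH mice (164959 to 201051), and WTEE 10 was highest (0.45, adjusted p = 0.3 in edgeR). Structural RNA gene models took 0.39% to 1.41% of counts in WTEE and 0.0497% to 0.562% in KDSH. The 9 tested gene models had a median log2 fold change of 1.29, with 1 higher and 0 lower. The ranges of the share overlapped between 0.39% and 0.562%, and with the share as a covariate DESeq2 placed 6 genes past the thresholds, Ighm, Klhl40, Batf3, Frem3, Hrk and Dio3.

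Lists of neuronal signalling had medians between −0.16 and 0.13. Of 22 glutamate receptor subunits, 0 were higher and 6 lower at an unadjusted p under 0.05 (median −0.16). Grin3a, an NMDA receptor subunit, had 2181 to 2451 normalized counts in KDSH and 1586 to 2156 in WTEE, without overlap (−0.24, standard error 0.07, adjusted p = 0.3 in edgeR). Without WTEE 10 and 13 the median was −0.04 and 2 were lower, when 677 of all 20187 genes were lower at that p. Synaptic vesicle and scaffold genes had a median of −0.10, with 1 of 18 lower (Shank2, −0.36), and the median was −0.03 without WTEE 10 alone. The CREB factors and coactivators, targets and partners of MSK1, had 0 of 8 at that p in either direction (median −0.12), and the MSK and RSK kinases 1 of 6 lower, Rps6ka2 (−0.18), with a list median of −0.10. Without WTEE 10 and 13 the medians of these lists were −0.06 and −0.03, with 0 members at that p in either. Of 8 tested neurotrophins and receptors, 1 was higher and 0 lower (median 0.13, and −0.03 with the choroid plexus level as a covariate). The higher gene was Bdnf, with 1506, 1536, 1620, 1536 and 1577 normalized counts in KDSH mice 1, 3, 8, 18 and 24 and 1554 to 2277 in WTEE, where mouse 13 overlapped with KDSH (0.21, standard error 0.08, adjusted p = 0.3 in edgeR). Immediate early genes had a median of −0.03, with Ier2, Dusp1 and Btg2 higher (0.59, 0.41 and 0.45) and Homer1 lower (−0.37), all with an adjusted p of 0.3 or above in edgeR. Without WTEE 10 and 13, 0 of the 20 immediate early genes were higher and 0 lower at an unadjusted p under 0.05, and with the choroid plexus level as a covariate 1 was higher and 1 lower. None of 14 neurogenesis genes had an unadjusted p under 0.05 (median 0.02), among them Dcx of newborn neurons (−0.26) and the proliferation marker Mki67 (−0.39), whose unadjusted p values were 0.122 and 0.0536 in edgeR.

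Of 16 interneuron genes, 3 were higher and 2 lower at an unadjusted p under 0.05, beside 9.31% and 6.54% of all genes, and the median was 0.04. Npy, Pvalb and Sst had log2 fold changes of 0.56, 0.51 and 0.36, and Nos1 and Lhx6 of −0.54 and −0.15 (adjusted p = 0.3 for each in edgeR). Gad1 and Gad2, which make the transmitter GABA, and its vesicular transporter gene Slc32a1 had values of 0.03, −0.03 and 0.06. Nos1, the neuronal nitric oxide synthase, had 5728 to 7696 normalized counts in KDSH and 2211 to 5520 in WTEE, without overlap, with the lowest value in WTEE 10. WTEE 10 was also the highest mouse for Npy, Pvalb and Sst, and without WTEE 10 and 13 the log2 fold changes of Npy, Pvalb, Sst and Nos1 were 0.51, 0.32, 0.21 and −0.38.

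**Figure D5:**
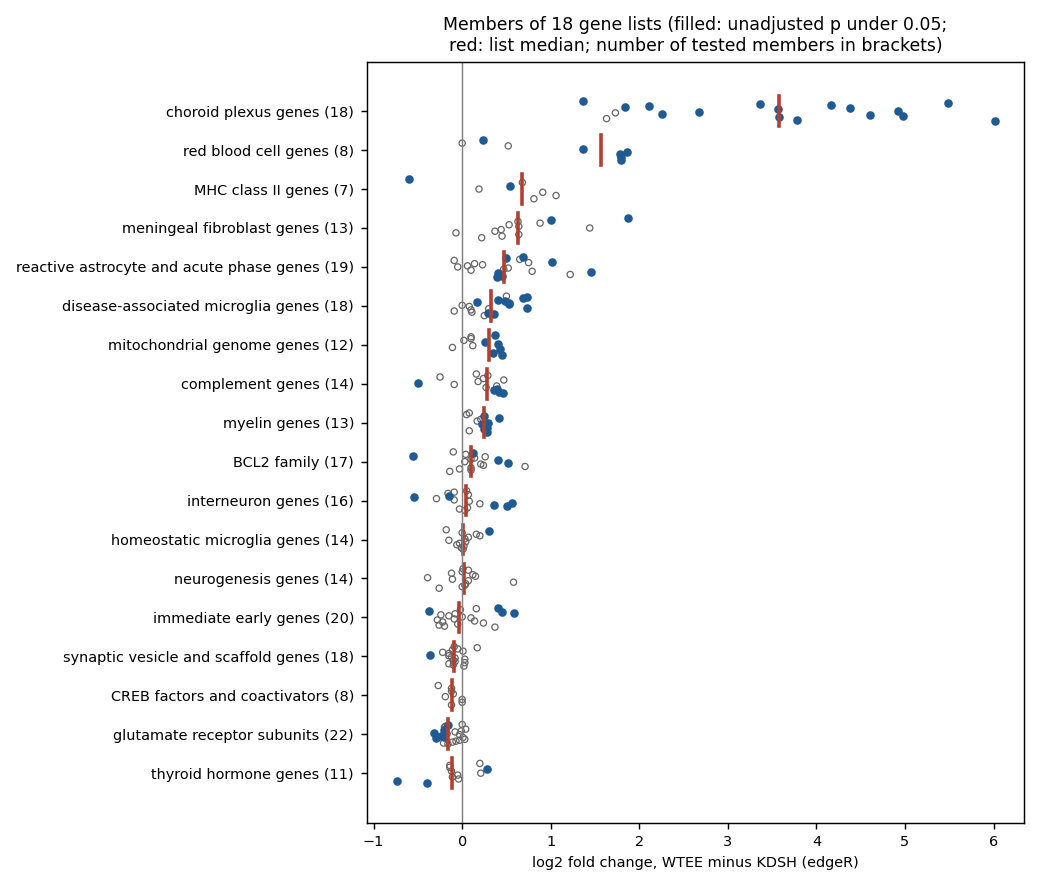
Log2 fold change (WTEE minus KDSH, edgeR) of the tested members of 18 gene lists, with the number tested in brackets. Filled points have an unadjusted p under 0.05, open points do not, and red lines are list medians. Choroid plexus genes stand far to the right with a median of 3.57. The medians of red blood cell, reactive astrocyte, disease-associated microglia and myelin genes lie right of 0. That of homeostatic microglia genes lies near 0 (0.01), and those of CREB factors and glutamate receptor subunits lie slightly left of 0.

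The genes Muc6, Olfr55, Svet1 and Kcnq1ot1, which the study names in other comparisons, had log2 fold changes of 0.78, 0.70, 1.10 and 0.21 here, with unadjusted p values of 0.0506, 0.106, 0.0793 and 0.291 in edgeR (adjusted p = 0.316, 0.375, 0.349 and 0.55). For each, WTEE overlapped with KDSH. Without WTEE 10 the values of Muc6, Svet1 and Kcnq1ot1 were 0.51, 0.59 and 0.02, and without KDSH 1 those of Muc6, Olfr55 and Svet1 were 1.22, 1.05 and 1.75. Olfr55 had its lowest value, 0.47, without KDSH 24. Svet1 and Olfr55 were at or under 37.6 normalized counts in all 11 mice.

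Among the 16 genes, Ighm and Dio3 lie on chromosome 12 with Rps6ka5, 12.7 and 9.55 Mb beyond it. That is 12.5% of the 16 genes, and 3.32% of the genes DESeq2 tested lie on this chromosome. Their genotype terms were 0.12 and −0.37.

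Promoters of the 16 genes were searched for the cAMP response element, the sequence that CREB binds, since MSK1 acts on CREB. RefSeq promoters (GRCm38.p6, 250 bases before to 50 after the start in that source) were found for 13 of the 16. That start can differ from the gene positions given above. The window of Batf3, chr1:191098164-191098463, lay wholly past the gene start given for it. Sequence outside the windows was not searched. The full element TGACGTCA was in 0 of the 13, against 1.79% of all 32851 promoters. The shorter core site TGACG, on either strand and also part of the full element, was in 3 of the 13 (Klhl40, Hrk and Flywch2), against 20.8% of all promoters. These promoters are shown on their own strand with the core sites in capitals (CGTCA is the core site on the opposite strand). A match describes the letters only.

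Klhl40, chr9:121777357-121777656, plus strand: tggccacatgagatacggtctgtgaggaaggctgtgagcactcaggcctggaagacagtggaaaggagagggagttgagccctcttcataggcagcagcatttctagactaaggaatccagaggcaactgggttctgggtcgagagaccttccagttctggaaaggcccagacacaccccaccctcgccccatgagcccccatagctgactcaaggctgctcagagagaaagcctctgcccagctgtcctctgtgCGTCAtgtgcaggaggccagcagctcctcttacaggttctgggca
Hrk, chr5:118169514-118169813, plus strand: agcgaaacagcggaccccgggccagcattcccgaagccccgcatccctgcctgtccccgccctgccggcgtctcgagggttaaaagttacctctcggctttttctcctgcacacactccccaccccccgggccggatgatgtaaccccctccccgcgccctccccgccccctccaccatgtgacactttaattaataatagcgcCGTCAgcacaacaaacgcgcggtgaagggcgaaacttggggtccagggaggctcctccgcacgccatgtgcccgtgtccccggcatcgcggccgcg
Flywch2, chr17:23786032-23786331, minus strand: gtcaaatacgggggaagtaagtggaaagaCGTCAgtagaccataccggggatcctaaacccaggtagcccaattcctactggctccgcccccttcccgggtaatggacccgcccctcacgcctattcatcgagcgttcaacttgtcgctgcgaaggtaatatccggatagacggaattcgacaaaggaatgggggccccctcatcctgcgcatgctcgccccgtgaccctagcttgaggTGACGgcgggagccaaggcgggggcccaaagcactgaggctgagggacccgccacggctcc

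Klhl40 had its core site 5 bases past the start, Hrk 46 bases before it, and Flywch2 held one at 221 and one at 11 bases before it. Klhl40 and Flywch2 were higher and Hrk lower in WTEE, so the genes with the core site did not share a direction.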

How the data were processed

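Raw counts per gene were used as the authors deposited them for 24 hippocampal libraries (TruSeq v2, poly(A) selected, paired ends). Per the labels and the study's methods, the authors checked reads with FastQC 0.11.3, trimmed them with Skewer, aligned them to GRCm38 with STAR 2.5 and counted unique alignments per gene symbol with HTSeq 0.6.1p1 without regard to strand. Such counts cannot separate overlapping genes, near-identical copies or PCR duplicates, so depth limits only counting error. Between 8.41% and 15.7% of read pairs in the 21 libraries fell on no gene and 4.14% to 6.57% were ambiguous, and these were left out of library sizes. Of 49568 symbols, 47206 (95.23%) matched 1 gene of GENCODE M21 (GRCm38), from which positions and exon lengths were taken.

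The 21 libraries that the study kept were fitted with edgeR 4.0.16 (R 4.3.3), with TMM scaling, the default filter on low counts, 1 mean per group and the quasi-likelihood test. Genes passed at a Benjamini-Hochberg adjusted p under 0.05 over all tested genes and an absolute log2 fold change over 0.38. DESeq2 1.42.0 was run with the Wald test, the study's test, and independent filtering at 0.1. The study used an earlier version and plotted fold changes transformed with a beta prior, while the fold changes here were not transformed. An adjusted p that DESeq2 left as NA was not counted. Single values per library were compared with exact two-sided permutation tests, whose smallest possible p was 0.00433. Mean log2 CPM used a prior count of 2. The fits were tested on simulated data in which 200 genes averaging 50 counts or more changed by 1 on the log2 scale between WTEE and KDSH. edgeR recovered 189 (94.5%) with 14 false calls over 19909 genes, and DESeq2 recovered 191 (95.5%) with 22 over 20187. Among the genes each tool called, 14 false calls thus stood beside 189 true ones in edgeR, and 22 beside 191 in DESeq2. In both tools this share of false calls was above the threshold of 0.05, and it was larger in DESeq2. Changes smaller than 1, such as the 0.43 of Bambi, were not simulated, so their recovery was not tested.

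The comparison, the 41 lists (568 entries) and the named genes were chosen with earlier results of these data known. Named were Rps6ka5, the genes past the thresholds in either tool, the genes the study names, and up to 4 members of a reported list by smallest p. C1ra, Lhx6, Igkc, Jchain, Mki67, Dcx, Ms4a1, Ctsb and other members named beyond that number, and those in the closing section, were chosen after their values were seen. Lists without values in the text had medians between −0.52 and 0.56. Alternatives were DESeq2, its filtering at 0.05, DESeq2 size factors in edgeR, no filter, at least 10 counts in every library, no fold threshold, all 24 libraries, the 21 with KDSH 6, only the 2 groups compared, a robust fit, 2 covariates and leaving out each library. Fits without WTEE 10 and 13 and DESeq2 with covariates or 2 groups were chosen after the data were seen. Promoters came from RefSeq (GRCm38.p6). Figures were drawn with matplotlib 3.10.9.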

Additional observations from a re-analysis of the deposited data

Results flagged for a closer look

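Within WTEE and KDSH, 50 groups of values were checked for a mouse far from the others of its group, of which chance flags about 1 in 20, and 8 held one. WTEE 10 was far below the other WTEE mice in Rps6ka5 (666 against 1072 to 1196 normalized counts). It was far above them in Cd14 (276 against 155 to 199), Flywch2 (577 against 272 to 360) and Svet1 (37.6 against 6.07 to 16.3). WTEE 17 was far above the others in Klhl40 (417 against 270 to 324) and Mylk3 (227 against 97.2 to 127). KDSH 18 was highest in Batf3 (46.7 against 40.7 to 42.3), still below every WTEE mouse, and KDSH 1 in Muc6 (120 against 35.2 to 57).

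KDSH 6, which entered no comparison above, had 5.65% of its counts on structural RNA gene models, against 0.0497% to 0.562% in the other KDSH mice.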

How the results depend on the processing

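The number of genes past the thresholds depended on the tool and on single mice. In edgeR, where 0 genes passed, 1 passed (higher) without the filter on low counts, with a robust fit and without WTEE 10 and 13, in each case Ighm. With all 24 libraries 3 passed, with KDSH 6 added 2, and with the choroid plexus level as a covariate 3, all higher. With only WTEE and KDSH in the model none passed, and the smallest adjusted p in edgeR was 0.502. The Wald test of DESeq2 gave 16 (12 higher, 4 lower), or 17 (13 and 4) with its filtering at 0.05. Leaving out single libraries gave 0 to 2 in edgeR (0 to 1 higher and 0 to 1 lower), with Ighm past the thresholds without KDSH 18, WTEE 11 or WTEE 13, and Ighm and Frem3 without KDEE 20. In DESeq2 the range was 5 to 188. It placed 6 genes past the thresholds without KDSH 1, 10 without KDSH 3, 5 without KDSH 8, 45 without KDSH 18, 9 without WTEE 13, 38 without WTEE 16 and 188 without WTEE 21, and the last held 15 of the 16 genes. It placed 10 without WTEE 10 and 13 and 6 with the structural RNA share as a covariate. The cause was not tested. DESeq2 with the choroid plexus level as a covariate gave 15 genes, of which 8 were among the 16. The log2 fold changes of Rps6ka5, the 16 genes and Muc6, Olfr55, Svet1 and Kcnq1ot1 kept their direction in every alternative run, which did not include the other named genes. Sums of CPM in place of mean log2 CPM were not run for the list levels. Beside the choroid plexus list, the median of the MHC class II list and that of the immunoglobulin and B cell list moved with WTEE 10 and 13, the latter from 0.43 to −0.04 without these mice. WTEE was deeper than KDSH, which limits statements on genes of low counts such as Cdk15 and Svet1. No paired analysis was possible because no mouse number occurs in more than 1 group.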

Other observations

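A further 5 genes had an adjusted p under 0.05 in DESeq2 with a log2 fold change under 0.38 in size, and all were chosen after their values were seen. Their log2 fold changes are those of DESeq2. Sfpq, a splicing factor known for long neuronal transcripts, had 9025 to 10608 normalized counts in KDSH and 6989 to 8930 in WTEE, without overlap (log2 fold change −0.33, adjusted p = 0.0141 in DESeq2 and 0.227 in edgeR). Fhl1, a LIM domain protein, had 4760 to 5069 in KDSH and 4054 to 4543 in WTEE (−0.20, adjusted p = 0.00558 in DESeq2 and 0.227 in edgeR), and Tmem200a had 1172 to 1329 and 879 to 1138 (−0.28, adjusted p = 0.0178 and 0.227). Syndig1, which encodes a protein of AMPA receptor complexes, had 831 to 1032 in KDSH and 1057 to 1366 in WTEE (0.35, adjusted p = 0.0294 and 0.281). Pcdh19, a cell adhesion protein, overlapped in 1 WTEE mouse, with 3982 to 5414 in KDSH and 2933 to 4002 in WTEE (−0.37, adjusted p = 0.0453 and 0.282).

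Of 17 circadian clock genes, 3 were lower at an unadjusted p under 0.05 in edgeR and 0 higher, beside 6.54% and 9.31% of all genes tested. The list median was −0.08. With the choroid plexus level as a covariate 2 were lower, and without WTEE 10 and 13 also 2, beside 673 and 677 of all genes tested. Per2 had 1515 to 2835 normalized counts in KDSH and 958 to 1966 in WTEE (log2 fold change −0.56, adjusted p = 0.3 in edgeR). The hour of tissue collection is not given in the sources used here. Pituitary hormone genes were high in 1 KDSH mouse, KDSH 8, where Gh had 6162 normalized counts against a KDSH median of 14 and a WTEE range of 1.71 to 556.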
